A study of Homo sapiens with 59 samples.

Results

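H3K4me3 after knockdown of DPPA4 was examined in 4 ChIP-seq libraries of the line shDPPA4, of 59 samples in the series. The libraries were chosen by their labels: target H3K4me3, line shDPPA4, DOX replicates 1 and 2 and H2O replicates 1 and 2. NCI-H661 is an established human line from a large cell carcinoma of the lung, and the series asks how its chromatin changes when DPPA2 and DPPA4 are depleted. Cells of all 4 libraries carried the same doxycycline-inducible hairpin against DPPA4. The DOX cells received 2 µg/ml doxycycline for 7 days to switch the hairpin on, and the H2O cells received water for 7 days. The line was a bulk population with the vector integrated by PiggyBac transposition and sorted for its mVenus reporter, not a single clone. The lines shDPPA2 and shDPPA2+4, treated in the same way, gave 4 H3K4me3 libraries each and served for comparison. No H3K4me3 library of doxycycline-treated cells without a hairpin against DPPA2 or DPPA4 was analysed here, so the hairpin and doxycycline itself cannot be told apart. Peak lists hold no RNA or protein, and the depth of the knockdown was not measured here.

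H3K4me3, trimethylation of lysine 4 of histone H3, marks the nucleosomes around the starts of active and poised genes. It is written by the MLL/COMPASS methyltransferases, which reach CpG-rich DNA through CXXC domain subunits, and is removed by KDM5 demethylases. DPPA2 and DPPA4 are small SAP domain proteins that the early embryo and the germline express together. They bind CpG-rich promoters and are known for maintaining H3K4me3 next to H3K27me3 at bivalent promoters, those that carry both an activating and a Polycomb mark.

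The data of each library are a list of domains, stretches of enriched chromatin called against the genomic input of the same line and treatment, each with its ChIP and input reads. Both replicates of a treatment were called against the same input. Domains with a log2 fold over input above 1 and an FDR under 0.05 were kept. There were 30845 and 31630 with H2O (replicates 1 and 2) and 29591 and 30259 with DOX, holding 9100669, 8732004, 11287966 and 13839131 reads in that order. The DOX libraries thus held more reads in fewer domains. The filter removed 4.38% and 2.69% of the H2O domains and 6.43% and 4.16% of the DOX domains. Of 20007 protein-coding promoters, 13872 were marked in all 4 libraries. Among 30 lung epithelial genes 14 were marked in all 4, among 20 blood genes 2, among 400 olfactory receptor genes 2 and among 21 genes of other silent tissues 1. A change of the mark in bulk chromatin cannot tell fewer marked cells from less mark in each cell.

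The DNA under the 3 regions where summed reads fell most with DOX is shown first, as 300 bases read from hg38 in the middle of the widest domain that the fold filter removed from DOX replicate 2, together with the promoters of the genes that hold the first pair of them, of DPPA4, and of a gene whose promoter was counted as gained and another counted as lost. Promoters are the 250 bases before the start of the gene, from RefSeq on GRCh38.p14, written 5′ to 3′ on the strand of the gene. Capitals mark CG dinucleotides. The windows are off the centre of their merged regions, and show CG content inside a gene beside that of promoters.
MAP4K3 intragenic (chr2:39411651-39411950, plus strand): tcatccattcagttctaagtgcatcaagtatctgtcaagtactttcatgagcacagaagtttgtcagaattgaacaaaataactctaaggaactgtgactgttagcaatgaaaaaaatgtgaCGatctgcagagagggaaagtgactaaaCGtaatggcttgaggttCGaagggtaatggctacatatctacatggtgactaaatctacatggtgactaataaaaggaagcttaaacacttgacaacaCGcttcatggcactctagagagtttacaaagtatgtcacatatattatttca
EEF1G intragenic (chr11:62562001-62562300, plus strand): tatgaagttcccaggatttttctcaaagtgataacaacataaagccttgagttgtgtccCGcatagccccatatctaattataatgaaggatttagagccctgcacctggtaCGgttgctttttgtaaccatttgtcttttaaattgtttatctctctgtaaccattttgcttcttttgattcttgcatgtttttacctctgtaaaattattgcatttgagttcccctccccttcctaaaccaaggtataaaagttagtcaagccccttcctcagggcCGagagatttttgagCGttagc
FOXP2 intragenic (chr7:114535101-114535400, plus strand): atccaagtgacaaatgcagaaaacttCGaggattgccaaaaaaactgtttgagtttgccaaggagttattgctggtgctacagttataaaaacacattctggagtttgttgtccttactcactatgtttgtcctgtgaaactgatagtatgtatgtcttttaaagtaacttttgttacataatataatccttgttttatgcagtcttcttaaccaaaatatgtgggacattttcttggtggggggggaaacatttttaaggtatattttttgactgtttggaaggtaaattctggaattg
MAP4K3 promoter (chr2:39437286-39437535, minus strand): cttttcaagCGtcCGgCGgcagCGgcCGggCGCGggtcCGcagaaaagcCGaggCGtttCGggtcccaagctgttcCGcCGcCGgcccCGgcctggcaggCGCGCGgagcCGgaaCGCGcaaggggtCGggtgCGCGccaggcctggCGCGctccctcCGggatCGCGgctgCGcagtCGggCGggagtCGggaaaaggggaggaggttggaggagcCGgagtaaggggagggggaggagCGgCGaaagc
EEF1G promoter (chr11:62573892-62574141, minus strand): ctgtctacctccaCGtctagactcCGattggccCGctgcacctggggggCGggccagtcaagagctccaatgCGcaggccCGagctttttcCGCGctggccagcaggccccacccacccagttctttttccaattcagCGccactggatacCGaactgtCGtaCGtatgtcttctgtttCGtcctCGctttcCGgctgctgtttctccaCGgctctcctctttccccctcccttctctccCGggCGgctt
DPPA4 promoter (chr3:109337547-109337796, minus strand): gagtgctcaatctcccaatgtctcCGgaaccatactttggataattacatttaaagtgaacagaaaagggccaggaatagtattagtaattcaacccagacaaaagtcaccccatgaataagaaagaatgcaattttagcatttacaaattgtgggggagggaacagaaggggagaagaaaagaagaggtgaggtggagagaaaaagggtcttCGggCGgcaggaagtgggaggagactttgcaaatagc
PTPRT promoter (chr20:43189907-43190156, minus strand): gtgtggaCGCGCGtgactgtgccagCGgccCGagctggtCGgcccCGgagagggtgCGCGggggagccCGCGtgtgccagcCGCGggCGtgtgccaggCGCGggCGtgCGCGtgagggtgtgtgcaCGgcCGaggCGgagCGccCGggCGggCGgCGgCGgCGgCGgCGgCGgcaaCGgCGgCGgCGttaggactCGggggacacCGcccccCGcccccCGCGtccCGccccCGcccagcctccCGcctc
HOPX promoter (chr4:56681297-56681546, minus strand): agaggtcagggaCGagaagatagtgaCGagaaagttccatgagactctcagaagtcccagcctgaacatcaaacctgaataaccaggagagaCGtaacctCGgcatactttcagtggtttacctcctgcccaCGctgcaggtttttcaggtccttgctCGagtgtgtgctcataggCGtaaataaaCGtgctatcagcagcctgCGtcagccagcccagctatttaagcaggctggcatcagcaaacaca

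The 3 intragenic windows hold 4, 4 and 1 CG, and no base of them is exonic. The promoters of MAP4K3 and EEF1G hold 36 and 18 CG in 250 bases, those of PTPRT and HOPX 44 and 9. The DPPA4 promoter holds 3. Over 21613 RefSeq promoters the median was 17, and 96.8% held at least 1 CG.

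The DPPA4 promoter was fully covered by H3K4me3 in all 4 libraries, over 3001 bp of the window of 1500 bp on each side of its start. Its region (chr3:109332201-109340700) held 209 and 213 scaled reads per kb with H2O and 213 and 200 with DOX, and the groups overlapped. Scaled reads are ChIP reads divided by a TMM size factor. The log2 change of summed reads was -0.08 ± 0.05 (SE, adjusted p = 0.698 by edgeR). The DPPA2 region next to it (chr3:109312801-109319400) held 167 and 135 scaled reads per kb with H2O and 134 in each DOX library, and its summed reads changed by -0.10 on the log2 scale (adjusted p = 0.673 by edgeR). Both genes of the pair had a marked promoter in all 4 libraries, as did the housekeeping genes ACTB and GAPDH and the study genes DLX1, DLX2, ITGB8 and CYP26A1, each covered over 3001 bp in all 4 libraries.

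Domains were then grouped by place. A promoter domain lies within 1500 bp of a start of a protein-coding transcript, an other-start domain near the start of another gene, a gene-body domain elsewhere inside a protein-coding gene, and a distal domain outside all of these. With DOX each class had fewer domains on average, and its median domain was wider. Promoter domains numbered 14805 and 15010 with H2O and 14688 and 14785 with DOX. Their median width was 2600 and 2500 bp with H2O and 2800 and 2700 bp with DOX. Domains over 5 kb at promoters numbered 1168 and 1042 with H2O and 1328 and 1301 with DOX. None of these measures overlapped between the groups, and the exact two-sided permutation test gave p = 0.333 for each, the smallest that 2 against 2 libraries allow.

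Gene-body domains numbered 5048 and 5255 with H2O and 4444 and 4569 with DOX, a difference of means of -645, while that of promoter domains was -171. Their median width was 1000 and 900 bp with H2O and 1200 and 1100 bp with DOX. Distal domains numbered 8188 and 8553 against 7741 and 8070. The gene-body and distal classes both separated by treatment in number and width, again at exact p = 0.333. Other-start domains numbered 2804, 2812, 2718 and 2835 in the same order, and there the groups overlapped.

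**Figure D1:**
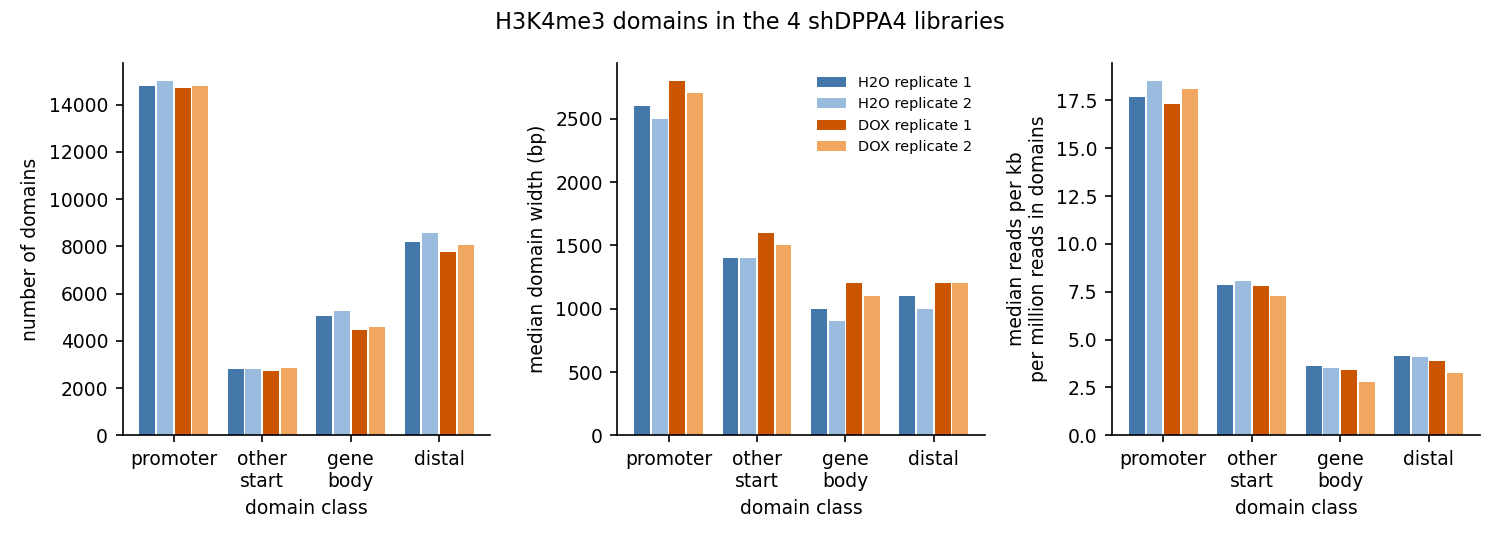
Domains per library by class, as number (left), median width in bp (middle) and median reads per kb per 1000000 reads in domains (right); each bar is 1 library, blue with H2O and orange with DOX. Both DOX libraries lie below both H2O libraries in the number of gene-body and distal domains and above them in median width.

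Reads per kb were higher in the DOX libraries, which also held more reads in domains. The number of reads in domains mixes depth with enrichment. Relative library totals, recovered from the fold column, were 1.48 and 1.17 with H2O and 1.85 and 1.63 with DOX. The median promoter domain held 161 and 162 reads per kb with H2O and 195 and 251 with DOX. Per 1000000 reads in the domains of each library, the values were 17.7 and 18.5 with H2O and 17.3 and 18.1 with DOX, and the groups overlapped. In gene bodies the same scaled median was 3.61 and 3.51 with H2O and 3.39 and 2.78 with DOX. In distal domains it was 4.16 and 4.09 with H2O and 3.87 and 3.27 with DOX. Scaled to reads in domains, the promoter median was lower with DOX within each replicate pair (by -0.38 and -0.41), although the groups overlapped. On the same scale gene-body and distal domains were thinner in both DOX libraries (exact permutation test, p = 0.333, the smallest possible). Promoters held 81.2% and 82.7% of the reads in domains with H2O and 82.4% and 83.5% with DOX. How far depth or enrichment sets the wider domains of the DOX libraries was not tested.

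Where a domain was called was mostly shared. Merged over the 4 libraries, the domains formed 33040 regions, of which 23997 (72.6%) had a domain in all 4. The share was 94.0% of 14901 promoter regions, 44.4% of 5670 gene-body regions and 54.5% of 9396 distal regions. Regions with a domain in both DOX libraries and no H2O library numbered 509, and the reverse held for 506. Split by replicate number instead, 344 regions had a domain only in both replicate 1 libraries and 496 only in both replicate 2 libraries. Presence with 1 treatment only was thus about as common as presence with 1 replicate number only. At promoters the counts by treatment were 63 and 32, in gene bodies 145 and 192, and among distal regions 252 and 243. For replicates 1 and 2 they were 31 and 72, 121 and 148, and 168 and 223. The regions present with 1 treatment only were narrow, with a median width of 750 bp for DOX only and 700 bp for H2O only.

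For a test per region, the domains of all 12 H3K4me3 libraries of the 3 lines were merged, and 22060 regions with a domain in every library were kept. A region's value in a library was the sum of the ChIP reads of its domains there, their summed width, or the reads per covered kb. All 12 libraries entered 1 edgeR fit, blocked on replicate number. A call needed a log2 change of at least 0.5 in either direction together with an adjusted p under 0.05. No region was called higher with DOX and 8 (0.0363%) were called lower in summed reads, among 2012 regions with an unadjusted p under 0.05. No promoter region was among them (0 of 13734, with 1039 at an unadjusted p under 0.05). 6 of the 8 lay in gene bodies, 1 at the start of another gene and 1 was distal. Covered width gave no call by limma (0 of 22060, 1382 at an unadjusted p under 0.05), and reads per covered kb gave none by edgeR or DESeq2 (0 of 22060, with 1450 and 909 at an unadjusted p under 0.05).

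The calls depended on the test and on the filter. The 4 shDPPA4 libraries fitted alone gave 220 calls (42 higher, 178 lower) and the edgeR likelihood ratio test on all 12 gave 51 (4 higher, 47 lower), whereas DESeq2 gave 0 (756 at an unadjusted p under 0.05) and the fit without the replicate block gave 1. With every deposited domain in place of those past the fold filter, edgeR called no region (2051 at an unadjusted p under 0.05).

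The largest fall was inside MAP4K3, which encodes a kinase of the MAP4K family that acts in stress and nutrient signalling. The region (chr2:39407801-39413900 in hg38) is intronic throughout and lies 26.4 kb from the nearest protein-coding start, that of MAP4K3. It held 157 and 120 reads over 5200 and 4100 bp with H2O, and 24 and 28 reads over 800 and 900 bp with DOX. Both DOX libraries were below both H2O libraries, by -2.91 ± 0.25 on the log2 scale (SE, adjusted p = 0.000105 by edgeR). Reads per covered kb changed by only -0.37 on the log2 scale (adjusted p = 0.814 by edgeR), so the fall lay in the covered width, for which limma gave an adjusted p of 0.0619. In both DOX libraries a further domain was deposited there with a log2 fold over input under 1: 71 reads over 1800 bp in replicate 1 (fold 0.916) and 71 reads over 2400 bp in replicate 2 (fold 0.815). With these domains counted, the DOX libraries held 95 and 99 reads, and the change was -1.01 (adjusted p = 0.0984 by edgeR). Input reads under the deposited domains were 5.96 and 4.63 per kb with H2O and 8.85 and 8.79 with DOX, while the ChIP reads were 30.2 and 29.3 per kb with H2O and 36.5 and 30.0 with DOX. These values are not scaled to depth, and the parts of input and ChIP reads in the fold were not tested.

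The region in EEF1G (chr11:62559201-62563600), the gene of a subunit of the translation elongation factor eEF1, also overlaps the gene ENSG00000255508 and has 540 exonic bp. It held 90 and 76 reads over 3300 and 2400 bp with H2O and 23 and 14 reads over 700 and 400 bp with DOX. The log2 change was -2.66 ± 0.27 (SE, adjusted p = 0.000764 by edgeR). Here too a wide DOX domain fell under the filter, of 3200 bp and 98 reads in replicate 1 (fold 0.703) and of 2500 bp and 80 reads in replicate 2 (fold 0.872). With every deposited domain the reads were 111, 76, 121 and 94 in the order H2O replicates 1 and 2, then DOX replicates 1 and 2, and the groups overlapped (log2 change -0.29, adjusted p = 0.704 by edgeR). Input reads were 5.78 and 5.42 per kb with H2O and 8.97 and 9.31 with DOX.

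The region in FOXP2 (chr7:114529501-114537000), which encodes a forkhead transcription factor, lies 118 kb from the nearest protein-coding start and has 90 exonic bp. It held 147 and 106 reads with H2O and 38 and 33 with DOX, over 4600 and 3700 bp against 1000 and 900 bp. The log2 change was -2.32 ± 0.32 (SE, adjusted p = 0.0159 by edgeR). With every deposited domain the DOX libraries held 146 and 144 reads, the groups overlapped, and the change was -0.30 (adjusted p = 0.821 by edgeR). Input reads were 8.70 and 8.65 per kb with H2O and 8.63 and 10.7 with DOX. The FOXP2 promoter was covered over 3001, 3001, 3001 and 2915 bp of its window in the 4 libraries, and its region changed by -0.22 (adjusted p = 0.620 by edgeR).

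The other 5 called regions changed less. A region at the start of a non-coding gene on chromosome 14 (chr14:29417401-29426400), 506 kb from PRKD1, held 482 and 385 reads with H2O and 252 and 288 with DOX (log2 change -1.18 ± 0.18, adjusted p = 0.0295 by edgeR). The region in DLG2 (chr11:84687901-84694500), the gene of a synaptic scaffold protein, held 210 and 134 reads with H2O and 126 and 132 with DOX (-0.90 ± 0.15, adjusted p = 0.0481 by edgeR). The region in HMCN1 (chr1:185848101-185855800), the gene of an extracellular matrix protein, held 317 and 266 reads with H2O and 214 and 234 with DOX (-0.88 ± 0.13, adjusted p = 0.0200 by edgeR). In these 3 regions both DOX libraries were below both H2O libraries before scaling, for domains past the fold filter. With every deposited domain the groups overlapped in all 3. Chromosome 14 then held 482 and 385 reads with H2O and 493 and 468 with DOX. DLG2 held 210 and 134 against 175 and 164, and HMCN1 329 and 266 against 296 and 279. In the distal region of chromosome 4 (chr4:117788001-117802400), 239 kb from NDST3, unscaled reads overlapped at 496 and 348 with H2O and 439 and 360 with DOX (-0.57 ± 0.08, adjusted p = 0.0159 by edgeR). The region in POC1B (chr12:89446301-89455400), the gene of a centriole protein, held 490 and 437 reads with H2O and 468 and 432 with DOX (-0.55 ± 0.09, adjusted p = 0.0481 by edgeR), a change that rests on the scaling to the deeper DOX libraries.

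Of the 8 regions, 7 had a DOX domain that the fold filter removed. The POC1B region was the exception: no domain was removed there in any of the 4 libraries, its width overlapped between groups (7700, 8000, 8500 and 7600 bp), and the change of -0.49 in its reads per covered kb had an adjusted p of 0.630 by edgeR. No region of the 8 lay under an H3K27me3 domain in the H2O cells of this line. The EEF1G region lay under H2AK119ub domains over 3400 and 1100 bp with H2O and 600 and 0 bp with DOX (replicates 1 and 3). In replicate 1 the chromosome 4 region lay under them over 900 bp with H2O and 1000 bp with DOX, and FOXP2 and POC1B over 0 bp with H2O and 400 and 600 bp with DOX. Replicate 3 had none in these 3 regions, and the other 4 regions had none in any library.

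**Figure D2:**
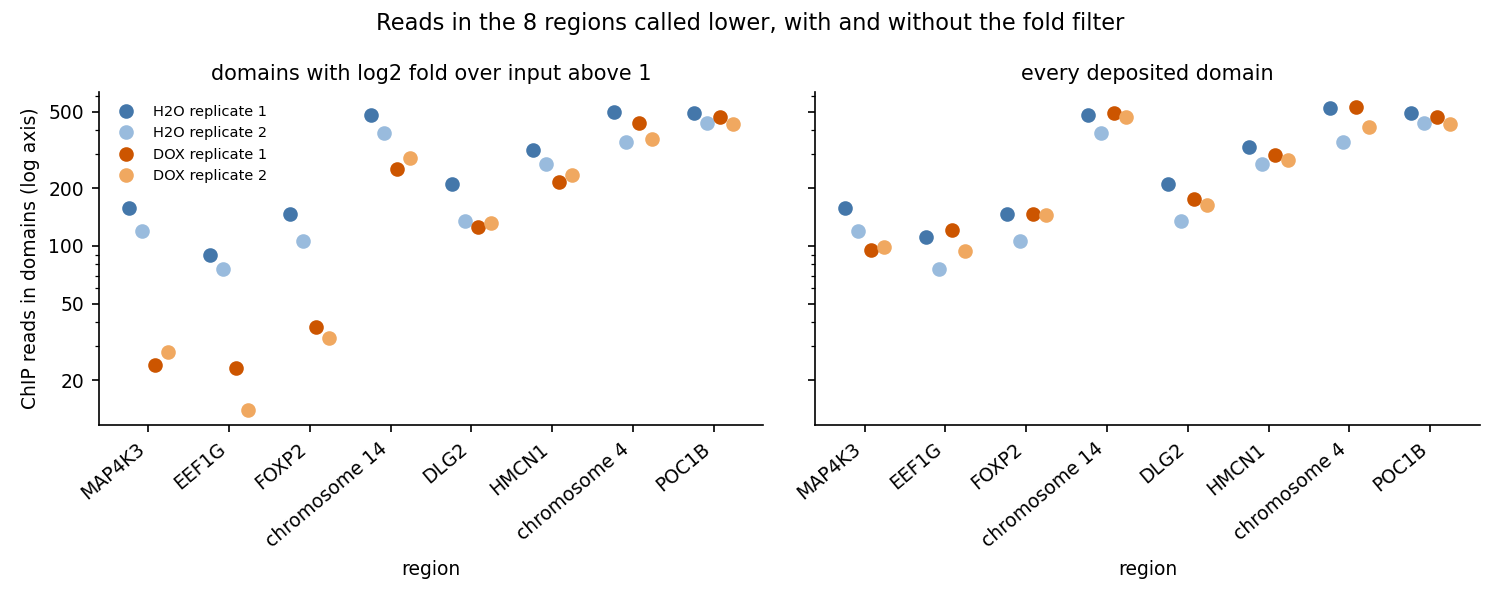
ChIP reads (log axis) in the 8 regions called lower with DOX, from domains with a log2 fold over input above 1 (left) and from every deposited domain (right); each point is 1 library. In MAP4K3, EEF1G and FOXP2 the DOX points stand far below the H2O points on the left, at 14 to 38 reads, and at 94 to 146 reads on the right.

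The same 8 regions were read in the other knockdown lines, from the same fit. In the MAP4K3 region the log2 change of summed reads with DOX was -0.10 in shDPPA2 and -0.50 in shDPPA2+4. In the EEF1G region it was -0.22 and -0.32, and in the FOXP2 region 0.32 and 0.09. Of these 6 changes none was called. The difference itself, the effect in shDPPA4 minus the mean effect of the other 2 lines, was called for 3 of 22060 regions (0.0136%), all lower: MAP4K3 at -2.61 (adjusted p = 0.00372 by edgeR), EEF1G at -2.39 (adjusted p = 0.0181) and FOXP2 at -2.53 (adjusted p = 0.0458). No such difference was called by edgeR with every deposited domain (576 at an unadjusted p under 0.05). The region on chromosome 14 was called lower in shDPPA2 as well, at -1.16 (adjusted p = 0.0446 by edgeR). There too the fold filter had removed 4500 and 4700 bp from the DOX libraries and 0 bp from the H2O libraries. With every deposited domain its unscaled reads in shDPPA2 overlapped, at 412 and 425 with H2O and 417 and 612 with DOX.

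**Figure D3:**
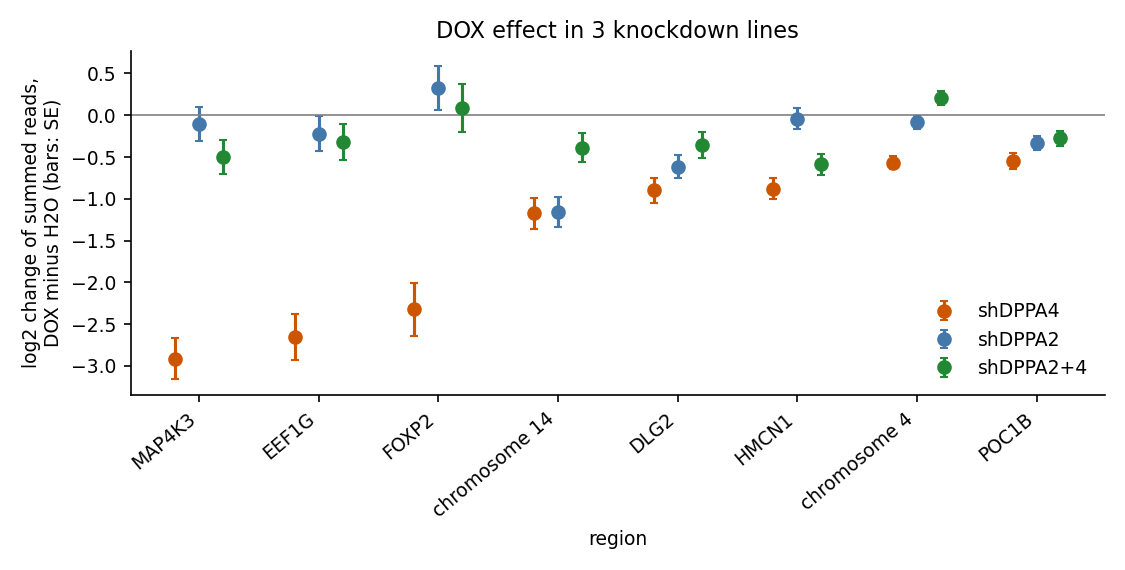
Log2 change of summed reads with DOX in the 8 regions for the lines shDPPA4 (orange), shDPPA2 (blue) and shDPPA2+4 (green); bars are standard errors of the edgeR fit. In MAP4K3, EEF1G and FOXP2 shDPPA4 lies between -2.91 and -2.32 and the other 2 lines lie between -0.50 and 0.32.

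Below the level of single regions, the classes moved by small amounts. The median log2 change of covered width was 0.07 in promoter regions, 0.10 in gene-body regions and 0.10 in distal regions. Reads per covered kb changed by a median of 0.03 in promoters, -0.10 in gene bodies and -0.09 in distal regions, against -0.00 over all 22060 regions. Summed reads changed by 0.01, -0.07 and -0.05. The TMM scaling sets the middle of all regions near 0. Scaled to the library totals recovered from the fold column instead, the median change of summed reads over all regions was 0.11, so the signs of the medians of summed reads hold only relative to the middle region.

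The number of regions whose libraries did not overlap showed the same order. Scaled reads per kb were higher in both DOX libraries than in both H2O libraries in 2968 promoter regions (21.6%) and lower in 1742 (12.7%). In gene bodies 171 regions (8.72%) were higher and 516 (26.3%) lower, and among distal regions 394 (9.43%) were higher and 1011 (24.2%) lower. Over all 22060 regions 3868 (17.5%) were higher and 3653 (16.6%) lower. Covered width was larger in both DOX libraries in 5208 of all regions (23.6%) and smaller in 1129 (5.12%).

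The other 2 lines had medians of the same sign in promoters, gene bodies and distal regions. In gene bodies, reads per covered kb changed by a median of -0.10 in shDPPA2 and -0.08 in shDPPA2+4, and width by 0.13 and 0.08. In promoters, width changed by 0.09 and 0.04 and reads per covered kb by 0.03 and 0.02. No difference between shDPPA4 and the other lines in width or in reads per covered kb was called (0 of 22060 for each, by limma with 827 and by edgeR with 936 at an unadjusted p under 0.05).

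**Figure D4:**
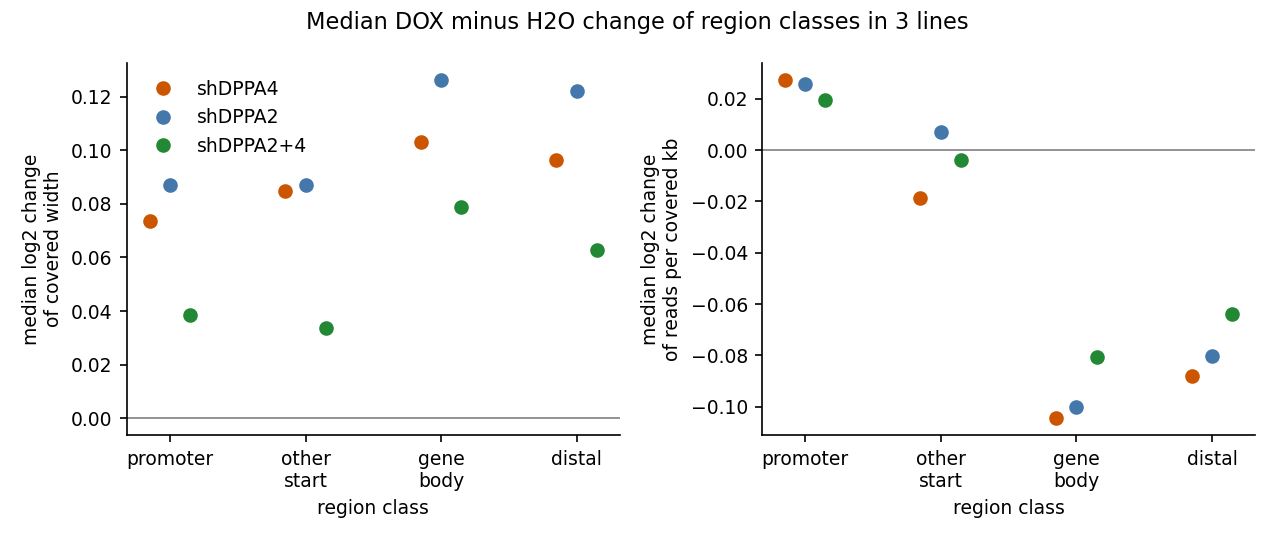
Median log2 change with DOX of covered width (left) and of reads per covered kb (right) over the tested regions of each class, 1 point per line; the grey line is no change. In all 3 lines the median width change was larger in gene-body and distal regions than in promoters, and the median change of reads per covered kb was -0.06 to -0.10 there.

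The regions of the classes differ in sequence. Promoter regions held a median of 40.2 CpG per kb, gene-body regions 12.7 and distal regions 16. Within each class, regions were split into 3 equal groups by CpG per kb. In the gene-body group lowest in CpG (median 5.97 per kb) reads per covered kb changed by a median of -0.19, and in the highest (37.1 per kb) by 0.00. Distal regions gave -0.18 in the lowest group and 0.02 in the highest. Promoter regions gave -0.01 (27 per kb) and 0.06 (58.7 per kb). The same order held in all 3 classes. The lowest groups of gene bodies and distal regions also held fewer scaled reads per kb with H2O, at 44.3 and 47.7, than the highest, at 73.1 and 82.8. In promoters the lowest group held more, 196 against 178. The parts of CpG content and signal level in the change were not tested.

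Width and change were related among promoters as well. In 424 promoter regions up to 1 kb wide, covered width changed by a median of 0.17, and in 357 regions over 8 kb by 0.02. In bp the median change was 100 for the narrowest and 200 for the widest. Reads per covered kb changed by a median of 0.01 in the narrowest and -0.01 in the widest.

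The widest promoter regions, which in this line lie over developmental regulators, were not called. The region over HOXC5 to HOXC11 (chr12:53972201-54034600), a part of the HOXC homeobox cluster, was covered over 59800 and 58500 bp with H2O and 60700 and 60200 bp with DOX. NR2F1, a nuclear receptor of neural development, was covered over 45300, 46500, 46900 and 45800 bp in the same order, and its paralog NR2F2 over 38300, 39400, 38700 and 39300 bp. SOX2, a pluripotency and airway progenitor factor, was covered over 36600, 36300, 36500 and 36300 bp. SKIDA1 was covered over 37500 and 36000 bp with H2O and 37400 and 37000 bp with DOX. The log2 changes of summed reads in these 5 regions were -0.05 to -0.10.

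The widest gene-body region lay in RBMS3, the gene of an RNA-binding protein, and was covered over 35100 and 32500 bp with H2O and 33300 and 37700 bp with DOX. Wide gene-body regions also lay in TOX and ADGRL2. In TOX, the gene of an HMG-box nuclear protein, scaled reads per kb were 83.2 and 76.3 with H2O and 82.1 and 64.7 with DOX, which overlapped, and the log2 change of summed reads of -0.24 had an adjusted p of 0.301 by edgeR. The widest distal region (chr6:27531101-27555300) held 161 and 142 scaled reads per kb with H2O and 148 and 138 with DOX, and was not called.

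Promoter regions with at least 100 reads on average and no overlap of reads per covered kb between DOX and H2O were ranked. The 5 with the largest change in each direction were named, and none was called. The largest value upward was at ENTPD8, an ectonucleotidase gene, with 146 and 136 scaled reads per kb with H2O and 204 and 228 with DOX (0.62 ± 0.16 on the log2 scale, adjusted p = 0.537 by edgeR). TTC7B, which encodes a part of a complex that recruits phosphatidylinositol 4-kinase, went from 118 and 128 to 181 and 180 (0.55, adjusted p = 0.633 by edgeR). HVCN1, ENSG00000284188 and ZSCAN31 followed at 0.57, 0.55 and 0.55. In all 5 both DOX libraries were above both H2O libraries, as the rule of choice required. Summed reads changed by 0.33 at ENTPD8, 0.42 at TTC7B, 0.26 at HVCN1, 0.14 at ENSG00000284188 and 0.07 at ZSCAN31. Covered width was smaller in both DOX libraries than in both H2O libraries at ENTPD8, ENSG00000284188 and ZSCAN31. It overlapped at TTC7B and HVCN1.

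Downward, ABLIM3 had the largest value at -0.74, with libraries at 95.1, 157, 63.3 and 84.6 scaled reads per kb. Its covered width was 900 and 800 bp with H2O and 1300 and 1500 bp with DOX, and its summed reads changed by -0.10. YIF1B, a gene of transport between the endoplasmic reticulum and Golgi, held 388 and 362 with H2O and 235 and 240 with DOX (-0.65 ± 0.13, adjusted p = 0.288 by edgeR). Its covered width was 2500 and 2600 bp with H2O and 4400 and 3900 bp with DOX, and its summed reads changed by -0.05. RPS15A, a ribosomal protein gene, showed the same form, at 279 and 288 scaled reads per kb with H2O and 214 and 180 with DOX (-0.54, adjusted p = 0.442 by edgeR) and a width of 3800 bp in both H2O libraries against 5000 and 6200 bp with DOX. FAM177A1 and PTPRG were at -0.57 and -0.56. In all 5, ABLIM3 included, the covered width was larger in both DOX libraries than in both H2O libraries, and summed reads changed by -0.04 to -0.23.

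Lists of genes were read for the machinery of the mark and for the biology of the line. The writers of H3K4 methylation (15 MLL/COMPASS genes) were marked in all 4 libraries without exception, and none was called. Their median change of reads per covered kb was 0.01, against 0.03 over all promoter regions. KMT2D, a methyltransferase of enhancers, was at the lower end at -0.19 (304 and 324 scaled reads per kb with H2O, 284 and 266 with DOX), and WDR5, a core subunit, at the upper end at 0.15. The 9 demethylase genes were likewise all marked, with a median of 0.06, and KDM5B, which removes this mark, was at 0.15. Among 31 Polycomb genes, all marked, the median was 0.04, with PHC3 of PRC1 at 0.33 and RING1, an E3 ligase of H2AK119, at -0.28. In summed reads KMT2D, WDR5, KDM5B, PHC3 and RING1 changed by 0.05, 0.09, -0.05, -0.03 and -0.07. The covered width of KMT2D was 6100 and 5600 bp with H2O and 7300 and 7500 bp with DOX. That of PHC3 was 2900 and 3000 bp with H2O and 2400 and 2500 bp with DOX. None of the members of these lists was called in reads, width or reads per kb.

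Developmental genes were mostly marked in every library. Of 39 HOX genes, 34 were marked in all 4 libraries, with a median change of reads per covered kb of -0.04 over 25 regions. HOXA7 had the largest value upward at 0.28 (235 and 222 scaled reads per kb against 255 and 301), and its summed reads changed by 0.02. Of 110 developmental transcription factors, 97 were marked in all 4 (97 and 100 with H2O, 98 and 99 with DOX), with a median of 0.03. GSX1, a homeobox factor of the brain, had the largest width change, from 1800 and 1300 bp with H2O to 3200 and 3500 bp with DOX (1.13 on the log2 scale), and SOX9 went from 1200 and 2100 bp to 2800 and 3300 bp (0.94). Neither was called. Of 61 Wnt genes 56 were marked in all 4, with a median of 0.03. The receptor gene FZD9 held 201 and 192 scaled reads per kb with H2O and 142 and 151 with DOX (-0.42, adjusted p = 0.695 by edgeR). Its covered width was 1400 bp in both H2O libraries and 2100 and 2000 bp with DOX, and its summed reads changed by 0.04. The receptor gene LGR6 lay at the other end of the list, with 30.2 and 40.3 against 58.1 and 39.6, which overlapped (0.40, adjusted p = 0.815 by edgeR). Of 34 germline and early embryo genes, the class in which DPPA2 and DPPA4 are normally expressed, 9 were marked in all 4 (10 in each H2O library and 9 in each DOX library), and none was gained or lost by the rule of presence in both libraries.

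Growth and lineage lists gave small medians. All 65 cytosolic ribosomal protein genes were marked, with a median change of summed reads of -0.08, against 0.01 over promoter regions, and of reads per covered kb of 0.01. Without adjustment 11 of the 65 were lower and 0 higher in summed reads at p under 0.05, where 526 of 13734 promoter regions (3.83%) were lower and 513 (3.74%) higher. Over all 22060 regions 1334 (6.05%) were lower and 678 (3.07%) higher. After adjustment over all regions none of the 65 was called by edgeR. Of 40 DNA replication genes 39 were marked (median of reads per covered kb -0.03), with GINS4 at 0.39 and MCM4 at -0.25. Lung epithelial genes (14 of 30 marked in all 4) had a median of -0.01, with FOXA1, a lineage factor of the airway, at 0.29, AGER, the alveolar receptor for glycation end products, at -0.33, and HOPX among the lost promoters. Mesenchymal genes (18 of 22) had a median of 0.01, with CDH2, N-cadherin, at 0.35 and COL3A1, a fibrillar collagen, at -0.21. Neuroendocrine genes (14 of 18) had a median of 0.00, with SCG3 at 0.31. In summed reads GINS4, MCM4, FOXA1, CDH2 and SCG3 changed by 0.11, -0.03, 0.04, -0.05 and -0.03. AGER and COL3A1 changed by -0.35 each. No member of any of the 16 lists was called.

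Promoters were also grouped by the Polycomb marks of the same line. H3K27me3 and H2AK119ub are laid down by PRC2 and PRC1, and their libraries (replicates 1 and 3) are other preparations than the H3K4me3 libraries. Bivalent promoters, with H3K4me3 in all 4 libraries and H3K27me3 in both H2O libraries, numbered 1461 over 1385 regions. They held a median of 97.9 and 110 scaled reads per kb with H2O and 105 and 111 with DOX, and the 9958 regions of promoters with H3K4me3 alone of the pair held 212 and 214 with H2O and 215 and 222 with DOX. The median change of reads per covered kb was 0.03 in each set. The width of bivalent regions changed by a median of 0.11, against 0.06 in the other set. No region was called in either by edgeR. At an unadjusted p under 0.05 in reads per covered kb, 53 bivalent regions were higher and 19 lower, and 377 of the other set were higher and 209 lower. Over all 13734 promoter regions, 509 were higher and 320 lower.

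Among promoters without H3K27me3, those with H2AK119ub in both H2O libraries (5433 regions) had a median change of 0.04 in reads per covered kb, and those with it in neither (2484 regions) of 0.00. The next sets were drawn from promoters with H3K4me3 in all 4 libraries, with or without H3K27me3. Promoters that lost H2AK119ub with DOX (785 regions, marked in both H2O and no DOX library) had a median of 0.02, and those that kept it (4530 regions) of 0.05. In summed reads the medians were -0.01 and 0.04. Bivalent promoters as a set had a median change of summed reads of 0.06, and their share of the lost and kept sets was not counted. No region of these sets was called. Over all promoter regions the medians were 0.03 in reads per covered kb and 0.01 in summed reads.

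At the level of presence, a promoter was counted as marked when at least 300 bp of its window of 3001 bp lay under kept domains. By this measure 13979 and 14022 promoters were marked with H2O and 14049 and 14112 with DOX. 40 (0.2% of 20007) were gained, marked in both DOX libraries and in no H2O library, and 3 (0.015%) were lost. Split by replicate number instead, 33 were marked in both replicate 2 libraries and in no replicate 1 library, and 16 the reverse. The count of 40 is thus not far above what replicate number alone gave. SLC1A2, a glutamate transporter gene, was covered over 800 and 1500 bp with DOX and 0 bp with H2O. B3GALT2, a galactosyltransferase gene, was covered over 900 and 1200 bp and CNGA3, a channel subunit of cone photoreceptors, over 1200 and 700 bp. USH1C, BCO1, BRINP1, ILDR1, FAM110C, EXTL1 and PTPRT, the last a receptor phosphatase gene of the nervous system, also went from 0 bp in both H2O libraries to between 500 and 1200 bp. TMEM215 and APCDD1L were covered over 0 and 200 bp with H2O. These 12 have the largest change in covered bp of the 40, but APCDD1L, at 750 bp, was tied with PAK5, PRRG1, ENSG00000250349 and ENSG00000254706 and is named by alphabetical order. Among the 40, 2 pairs share a start site region (PRRG1 with ENSG00000250349, and KRT222 with ENSG00000264058).

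The gained domains were weak. The domain at a gained promoter held a median of 22 reads in DOX replicate 1 and 19.5 in DOX replicate 2, whereas all promoter domains held 566 and 703. At SLC1A2 it held 19 and 46 reads, with 0 and 1 input reads. The median log2 fold over input was 2.95 and 3.04, against 4.21 and 4.72. Of the 40, 27 had no deposited H2O domain in the window, and 2, B3GALT2 and EXTL1, would have been marked with H2O without the fold filter. At the other edge of the rule, LPXN (256 and 156 bp with H2O, 356 and 456 bp with DOX) and ENSG00000256349 (279 bp in both H2O and 379 bp in both DOX libraries) were counted as gained by moving across 300 bp. Of the gained promoters 17 (42.5%) carried H3K27me3 in both H2O libraries, against 10.5% of the 13872 marked throughout, and 16 (40%) carried it in none, against 84.1%. The 2 sets differ by selection. The gained promoters were chosen as unmarked with H2O, and their median coverage with DOX was 625 bp, against 2597.5 bp in those marked throughout. No set of similarly weak promoters was compared, so these shares cannot be tied to the gain itself. Among 29 matched in RefSeq the median was 14 CG in 250 bases.

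In the other lines, mean coverage of the 40 promoters was higher with DOX at 27 and lower at 10 in shDPPA2, and higher at 23 and lower at 8 in shDPPA2+4. The same counts were not made over all promoters, so a response of the 40 cannot be read from them. Over all promoter regions the median log2 change of covered width was also upward, at 0.09 in shDPPA2 and 0.04 in shDPPA2+4. Of the 40, 3 were gained in shDPPA2 and 4 in shDPPA2+4, where 20 and 24 promoters were gained in all. SLC1A2 was covered in the H2O libraries of both lines, at 300 and 1500 bp for shDPPA2, and at 700 and 800 bp for shDPPA2+4. Its absence with H2O was thus not shared by the other lines. Over the 40, median coverage with H2O was 449.5 bp in shDPPA2 and 300 bp in shDPPA2+4, against 0 bp in shDPPA4, where they were chosen as unmarked.

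The 3 lost promoters were those of HOPX, PLA2G4A and FGF21. HOPX, an atypical homeobox gene of alveolar type I cells, was covered over 1200 bp in each H2O library and 0 bp in each DOX library. With every deposited domain it was covered over 1200, 1200, 1300 and 1100 bp, so its DOX domains were present but under the fold filter. PLA2G4A, the gene of cytosolic phospholipase A2, was covered over 500 bp in each H2O library and, with every deposited domain, over 1000 and 700 bp with DOX. FGF21, a hormone of the fasting response, was covered over 477 and 377 bp with H2O and 177 and 77 bp with DOX, also with every deposited domain. In shDPPA2 HOPX was covered over 0 and 700 bp with H2O and 600 and 1200 bp with DOX. In shDPPA2+4 the values were 600 and 0 bp with H2O and 0 and 1200 bp with DOX, so its mark varied between replicates of 1 condition there.

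**Figure D5:**
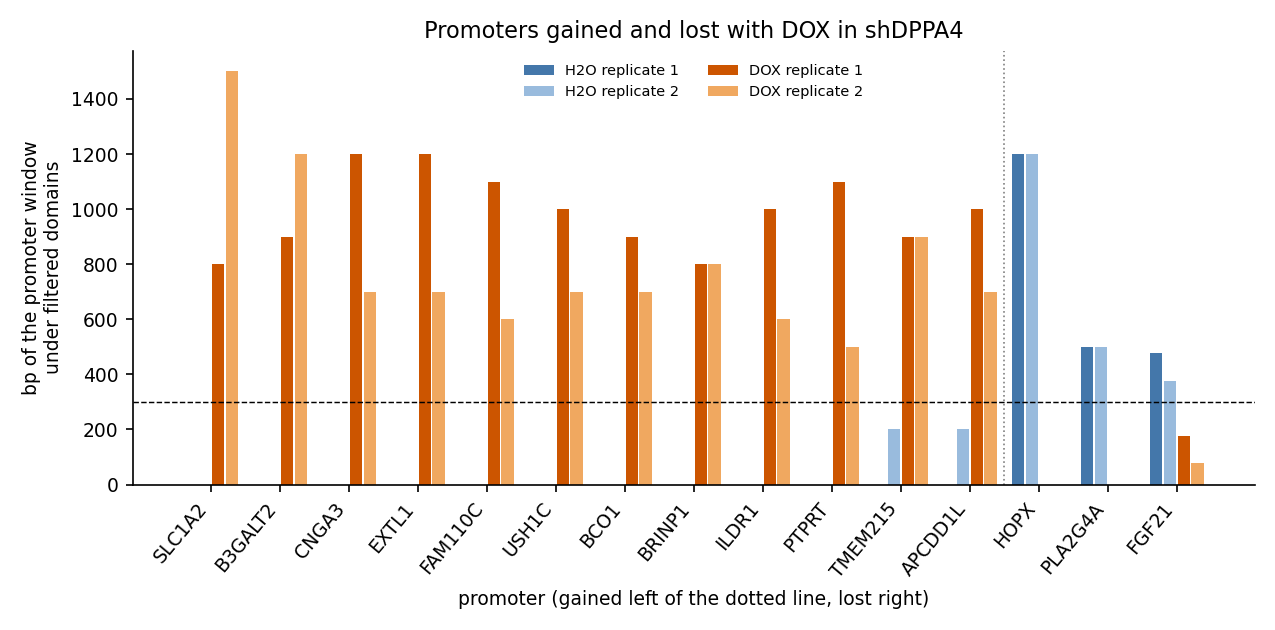
Covered bp of the promoter window under kept domains for the 12 gained promoters with the largest change (left of the dotted line) and the 3 lost ones (right), 1 bar per library; the dashed line is 300 bp, the minimum for a marked promoter. The gained promoters reach 500 to 1500 bp with DOX and at most 200 bp with H2O, and HOPX stands at 1200 bp with H2O and 0 bp with DOX.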

How the data were processed

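NCI-H661 chromatin was profiled by H3K4me3 ChIP-seq with added mouse chromatin, whose reads were not used here. By the submitters' processing notes and the methods of the study, the authors trimmed reads with Trim Galore 0.6.6, aligned them to hg38 with BWA 0.7.13 and marked duplicates with Picard 2.6.0. They called domains with EPIC2 per library, without pooling, in bins of 100 bp. Raw read counts per domain, of ChIP and of input, are deposited. The deposited fold is a log2 ratio of ChIP to input, scaled to library totals. The FDR column deposited by the authors holds adjusted p-values, used only to filter. Blacklisted regions were not removed here.

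Domains were annotated with GENCODE 44. Regions with at least 10 reads on average were tested in R 4.3.3 with edgeR 4.0.16 (quasi-likelihood, TMM scaling, covered width as an offset for reads per kb) and limma 3.58.1 (log2 width), with Benjamini-Hochberg adjustment over all regions. DESeq2 1.42.0 and the likelihood ratio test, which the study used, were alternatives. The replicate number was a block because the study made its replicates in complete batches. Same-numbered libraries deviated together (correlations 0.322 to 0.499). The labels give only replicate numbers, so p-values measure the spread between these libraries. With 2 libraries a group, exact permutation tests cannot go below 0.333. Scripts were tested on simulated data. Counts carry counting error: domains with few reads have imprecise widths and folds. Named regions were all those called, the widest of each class, and promoter regions with large changes of reads per covered kb. The last were the 5 largest in each direction with a mean of at least 100 reads and no overlap between DOX and H2O. Named promoters were the 12 with the largest change in covered bp in each direction (ties in alphabetical order), and named list members those with extreme reads per covered kb or width. Some items these rules name are not reported here. Members, lists and rules were chosen with earlier results of these data known.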

Additional observations from a re-analysis of the deposited data

Results flagged for a closer look

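The change with DOX differed between shDPPA4 and the mean of the other 2 lines in 3 regions, by a test of the difference itself in the edgeR fit. The difference in summed reads was -2.61 on the log2 scale in the MAP4K3 region, -2.39 in the EEF1G region and -2.53 in the FOXP2 region. In these regions the DOX domains of shDPPA4 that lay under the fold filter made up 1800 and 2400 bp in MAP4K3, 3200 and 2500 bp in EEF1G, and 4100 and 3600 bp in FOXP2. With them counted, 0 differences were called.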

How the results depend on the processing

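Of 105 values of 13 results under alternative settings, 63 stayed close to the value reported and 42 moved. The 8 calls in summed reads became 1 without the replicate block (no replicate block), 0 with every deposited peak, 0 with DESeq2, 51 with the likelihood ratio test, 220 with the shDPPA4 libraries alone, and 2 to 14 when each library was left out in turn. They stayed at 8 with RLE size factors and were 6 with recovered library totals. Calls in covered width ranged from 0 to 11 and in reads per covered kb from 0 to 4 with a library left out, the latter being 1 by the likelihood ratio test and 13 with shDPPA4 alone. The 11 arose without H2O replicate 1, and the 14 calls in summed reads without DOX replicate 2. The 3 differences between lines became 0 without the block and with every deposited peak, 5 with recovered totals, and 0 to 5 with a library left out (0 without H2O replicate 1). Gained promoters numbered 65 to 89 and lost promoters 10 to 31 with a library left out, since fewer libraries then had to agree. Lost promoters numbered 8 at a minimum of 100 bp and 1 with every deposited peak. The difference in the number of domains was -784.5 with every deposited peak and -1705 to -920 with a library left out. The difference in median promoter width was 125 bp at a log2 fold above 2, and 150 to 250 bp with a library left out. That of distal width was 200 bp with every deposited peak, and 100 to 200 bp with a library left out. The differences in median reads per kb, 6.63 in gene bodies and 7.71 in distal domains, became 5.46 and 6.31 with every deposited peak and 11.3 and 13.5 at a log2 fold above 2, and the former was 7.95 with 1 start per gene. With a library left out they were 5.51 to 7.74 and 6.66 to 8.77, and 34.1 to 89.2 at promoters. Of the 8 called regions, 32 of 80 alternative values stayed called and none reversed. The cause was not tested where a value does not show it. Domains of few reads limit what 2 libraries can show, and every test rests on domains that passed a caller in each library.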
